A study of Mus musculus with 12 samples.

Results

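Type I interferon response genes are described here across 5 sorted populations of mouse CD4 T cells. The list held 35 genes, chosen by name as known targets of the interferon response and not by a threshold on their values. Of these, 33 had a probe set annotated to them alone, and 32 passed the filter on low values (log2 5 on at least 2 arrays), out of 9886 genes that passed of 18194 measured. Mx2, which codes for a dynamin-like GTPase, read at most 4.08 on any of the 12 arrays and was not tested. Isg15, a ubiquitin-like protein attached to other proteins, had only 1 probe set that is shared with another symbol, and Ifi44 was not analysed here.

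Type I interferons bind the receptor formed by IFNAR1 and IFNAR2. The kinases JAK1 and TYK2 then pass on the signal, and a complex that holds STAT2 and IRF9 binds the interferon-stimulated response element in the promoters of these genes. The products degrade or bind viral RNA, block entry and budding of viruses, sense RNA in the cytosol, and adjust the signal itself. T cells keep many of these genes at a basal level without infection.

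The study compared follicular helper T (Tfh) cells, which help B cells in germinal centres, with other CD4 T cells of immunized mice. All mice were S1pr2V/+, which means that they carried a Venus fluorescence reporter at 1 copy of S1pr2, a receptor for sphingosine 1-phosphate. They had received chicken gamma globulin (CGG) in complete Freund's adjuvant (CFA) under the skin 10 days earlier. Lymph node cells gave Venus-high Tfh (3 arrays) and Venus-low Tfh (3 arrays), both CXCR5+ PD1-high, PD1-intermediate Th (2 arrays, CXCR5+) and PD1-low Th (2 arrays, CXCR5-low), all of them CD4+, CD44-high and negative for the dump stain. Naive CD4 T cells (2 arrays; CD44-low, CD62L-high) came from spleen, where the labels name the same immunization and the series text also names control mice. Each array held RNA pooled from 4 or 6 mice (2 for naive cells). The labels do not say whether pools of different groups shared mice, so the tests measure the spread between these pools. In RNA from a sorted pool, fewer cells expressing a gene and less RNA per cell cannot be told apart.

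The arrays fell into 3 sets by the shape of their value distributions, and the labels do not name such sets. Their 75% quantiles were 8.50 to 8.55 in set 1, 8.68 to 8.76 in set 2 and 9.39 to 9.42 in set 3. Set 1 held replicate 1 of both Tfh groups and naive 1. Set 2 held replicate 2 of both Tfh groups, PD1-low 1 and naive 2, and set 3 held replicate 3 of both Tfh groups, both PD1-intermediate arrays and PD1-low 2. Set 2 also held 3315 probe sets more than 3 log2 units away from both other sets, and 1 of the 32 tested interferon genes, Parp14, was measured by such a probe set. Each result is therefore given from the fit of the 5 groups alone and, where it differs, from the fit with the array set as a term. CD4 T cell markers (Cd3e, Cd3d, Cd3g, Cd4, Cd28) read together at 16.28 to 16.79 on all arrays, while Cd79a, Ms4a1, Siglech, Cd8a, Ncr1 and 7 of 8 myeloid markers stayed below log2 5 on every array. Of the 4 B cell and 4 plasmacytoid dendritic cell markers measured, 2 and 3 passed the filter, among them Pax5 and Ccr9 with displaced probe sets. Cd79b, of B cells, read 2.50 to 3.99 in Venus-high Tfh and 5.83 and 8.99 in PD1-low Th, and with the set term was lower in Venus-high Tfh (adjusted p = 0.0126). Tcf4 and Spib, of plasmacytoid dendritic cells, were higher there with the term (adjusted p = 0.00871 and 0.0232). The part of these markers in the results below was not tested. S1pr2, the gene that carries Venus, read 12.58 to 13.09 in Venus-high and 9.86 to 10.68 in Venus-low Tfh.

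The promoters are shown first because the response element is a sequence that many, though not all, of these genes carry. RefSeq promoters (GRCm38.p6, 250 bases before to 50 after the start) were found for 26 of the 35 genes. The repeat GAAA, any 2 bases, GAAA, which is the core of the response element, was searched on both strands, and matches may overlap each other. It occurred in 15 of the 26 genes (57.7%), against 3.99% of 27025 genes and 3.44% of 32851 promoters. The STAT motif TTCNNNGAA, which reads the same on both strands, occurred in 7 of the 26 (26.9%), against 9.55% of genes and 8.3% of promoters. Oas2, Mx1 and Ifi27l2a, which also passed below, are among the 9 genes with no promoter found. Below are the 150 bases before the start of 5 genes that passed in a comparison. Rsad2 and Bst2 did not pass in the fit of the groups alone but did with the array set term. Capitals mark the GAAA units of a match, or TTTC where the match lies on the other strand. The windows are Oas1a at chr5:120907526-120907675 (minus strand), Gbp3 at chr3:142559894-142560043 (plus strand), Rsad2 at chr12:26456453-26456602 (minus strand), Bst2 at chr8:71537473-71537622 (minus strand) and Ifit2 at chr19:34550544-34550693 (plus strand).
Oas1a: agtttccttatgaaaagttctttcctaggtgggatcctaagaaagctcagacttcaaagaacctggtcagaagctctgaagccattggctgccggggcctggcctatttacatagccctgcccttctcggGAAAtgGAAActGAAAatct
Gbp3: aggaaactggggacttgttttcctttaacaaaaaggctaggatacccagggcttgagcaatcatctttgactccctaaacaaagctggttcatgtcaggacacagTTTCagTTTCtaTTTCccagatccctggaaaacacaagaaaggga
Rsad2: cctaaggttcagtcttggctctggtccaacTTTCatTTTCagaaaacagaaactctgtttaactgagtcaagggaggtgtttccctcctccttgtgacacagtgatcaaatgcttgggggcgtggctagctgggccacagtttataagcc
Bst2: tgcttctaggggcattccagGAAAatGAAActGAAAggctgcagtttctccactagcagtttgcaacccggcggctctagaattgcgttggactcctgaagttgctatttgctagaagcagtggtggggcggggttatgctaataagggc
Ifit2: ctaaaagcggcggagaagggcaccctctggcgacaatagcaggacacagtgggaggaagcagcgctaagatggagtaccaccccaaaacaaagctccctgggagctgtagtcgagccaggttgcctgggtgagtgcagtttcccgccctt

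Oas1a, Gbp3 and Bst2 each carried 2 overlapping matches, that is 3 units in a row, beginning at base -20, -45 and -130 from the start. Rsad2 carried 1 match at -120. The windows of Ifit2 held no match to these letters. In Ifih1 the match began 33 bases after the start, and it is not printed. A match is a run of letters and does not show that a factor was bound.

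Across the 6 comparisons, single interferon genes passed in both directions. Between Venus-high and Venus-low Tfh, 0 of 32 passed limma at an adjusted p under 0.05, against 1.31% of all genes, and 2 were lower at an unadjusted p under 0.05 (Ifitm3 and Eif2ak2). Counts at an unadjusted p, here and below, have no share of all genes beside them and are not read as results about the list. With the replicate number as a block, 0 of 32 passed, against 2.65% of genes. With the array set term, 2 passed, both lower in Venus-high (Bst2 and Eif2ak2), against 16.9% of all genes (9.43% lower). The median difference of the 32 genes was -0.11, against 0.02 over all genes.

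Down the series of PD1 levels, 0 of 32 passed between Venus-low Tfh and PD1-intermediate Th (background 0.566% of genes), with 2 lower at an unadjusted p under 0.05. With that term 0 passed again, against 6.41% of genes. The median difference was -0.55, against -0.40 over all genes, and -0.04 with the set term, against -0.01. Between PD1-intermediate and PD1-low Th, 0 of 32 passed (4.01% of genes), while without adjustment 2 had p under 0.05 and a higher level and 3 a lower level. There the set term gave 6: Oas1a and Mx1 were higher in PD1-intermediate cells, and Oas2, Gbp2, Gbp3 and Bst2 were lower, against 12.8% of genes (8.09% higher and 4.7% lower). The median difference was 0.12, against 0.29 over all genes, and -0.06 with the set term, against 0.00, so its sign turned.

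Venus-high Tfh and PD1-low Th differed in 4 of 32 genes (11.3% of all genes passed, 6.34% higher and 4.93% lower). Oas1a was higher in Venus-high Tfh, and Oas2, Gbp3 and Ifit2 were lower. In the fit with the set term 12 passed, 4 higher and 8 lower, against 34.7% of genes (19% and 15.6%). Of the 32, 12 did not overlap between these groups, against 29.6% of genes. The median difference was -0.51, against -0.09 over all genes, and -0.25 with the set term, against 0.01.

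Venus-high Tfh and naive cells differed in 5 of 32 genes (13.7% of all genes passed, 9.49% higher and 4.22% lower), with Mx1, Oas1a, Ifih1 and Ifi27l2a higher and Oas2 lower. Under the set term 14 passed, 7 in each direction, against 41.1% of genes (20.2% and 20.9%). The term takes 1 shift per set for all groups. From set 1 to set 2 the median interferon gene moved by 1.00 in Venus-high Tfh and 0.06 in naive cells. Calls against naive cells under the term are therefore less certain. Within each of sets 1 and 2, 6 of the 14 were higher by more than 0.5 (16.6% of genes) and 4 lower (15.3%). Ifit1, Trim25, Trim30a and Dhx58 were not among these. The median difference was 0.34, against 0.18 over all genes, and -0.13 with the set term, against -0.02, so its sign depends on that term. These comparisons share the Venus-high arrays with those above. Naive cells came from spleen and all other groups from lymph node, so organ and cell state cannot be told apart in any comparison with naive cells. Oas1a and Oas2 passed against both PD1-low and naive cells, in opposite directions.

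PD1-low Th and naive cells differed in 0 of 32 genes (0.0809% of all genes passed), with 6 higher in PD1-low cells at an unadjusted p under 0.05. The share of all genes at that unadjusted threshold is not given. Once the set was a term, Mx1 and Gbp3 passed, both higher in PD1-low Th, against 0.566% of genes (0.435% higher). On the arrays the genes leaned 1 way here: 30 of 32 had a higher mean in PD1-low Th, against 75.9% of genes, and in 26 of 32 both PD1-low arrays lay above both naive arrays, against 29.1% of genes. Set 2 holds 1 array of each group, and within it 29 of 32 were higher in PD1-low Th, against 51.6% of genes, and 16 were higher by more than 0.5, against 9.26%. The median of the tested interferon genes was 10.29 on naive 2, against 10.94 to 11.17 on the other arrays of set 2. A group difference and a low naive 2 array cannot be told apart within this set. The median difference was 0.96, against 0.28 over all genes, and 0.32 with the set term, against -0.04. The difference of the list from other genes was not tested.

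The replicate number pairs the Tfh arrays, and in the PD1-intermediate and PD1-low groups it does not follow the array sets. Both PD1-intermediate arrays lie in set 3, so a replicate block does not separate the shift between sets from their difference to Tfh cells. With the replicate number as a block, 11 of 32 genes were lower in Venus-low Tfh than in PD1-intermediate Th. Of all genes 27.9% passed in either direction, and with the set term 0 of 32 passed. The 11 genes were Trim30a, Zbp1, Irf9, Usp18, Ifit1, Rsad2, Irf7, Herc6, Ifit2, Bst2 and Oas2. Between Venus-high Tfh and PD1-low Th 14 passed with the block, against 25.9% of genes. Oas1a was higher, and Oas2, Gbp3, Ifit2, Trim30a, Trim25, Zbp1, Irf9, Usp18, Ifit1, Ifit3, Gbp2, Bst2 and Stat2 were lower. Mx1 and Gbp2 passed between PD1-intermediate and PD1-low Th (6.99% of genes), and Mx1 between PD1-low Th and naive cells (0.253%). Between Venus-high Tfh and naive cells 6 passed (19.7%).

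**Figure D1:**
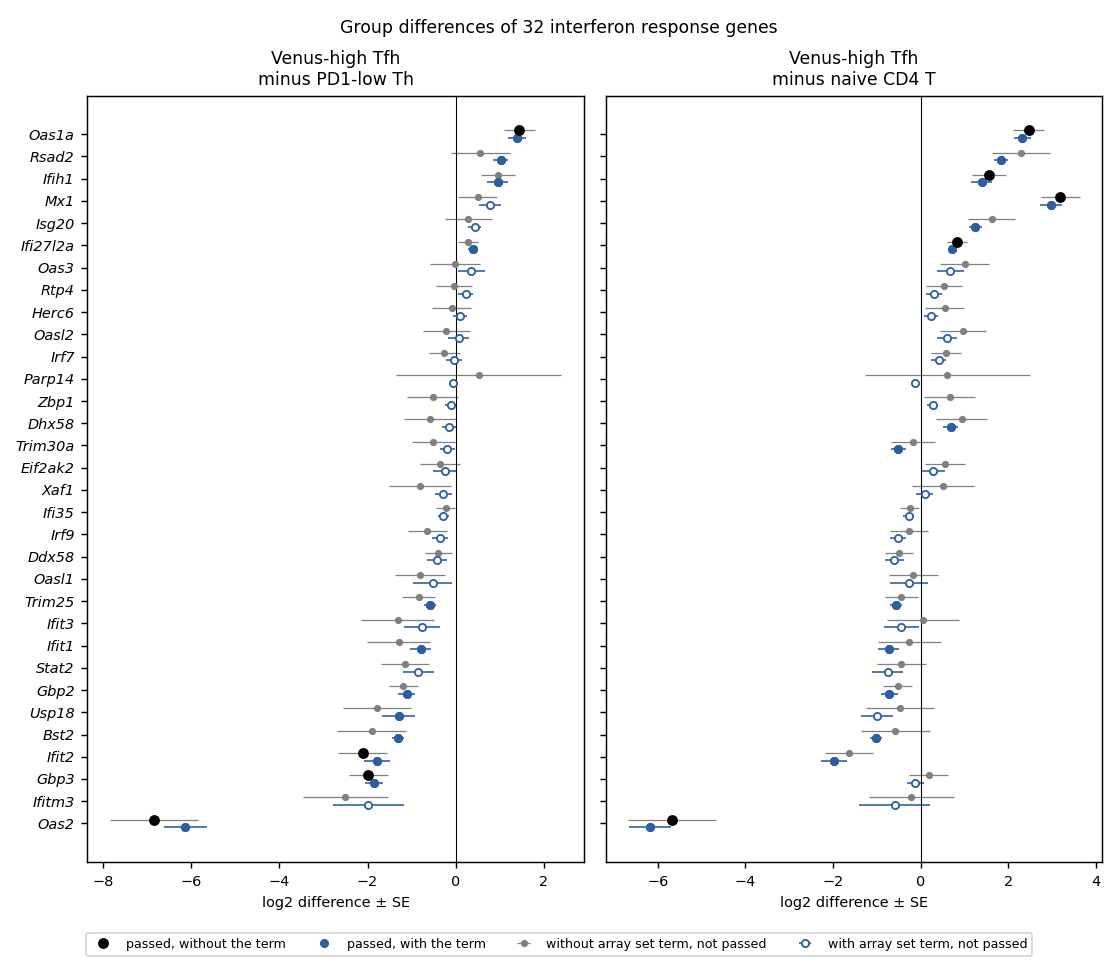
The plot gives the log2 difference ± SE (horizontal axis) of 32 interferon response genes (rows) between Venus-high Tfh and PD1-low Th (left) and between Venus-high Tfh and naive CD4 T cells (right), from limma without (black and grey) and with (blue) the array set term. Filled black or blue points passed at an adjusted p under 0.05: Oas2 lies at -6.85 and -5.67, and Oas1a lies on the other side of 0 at 1.45 and 2.46.

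The OAS proteins make 2′-5′ oligoadenylates in response to double-stranded RNA, which switch on the nuclease RNase L. Oas2 had the widest range of group means of all the members. It read 2.13, 3.18 and 3.63 in Venus-high Tfh and 2.18, 5.33 and 5.86 in Venus-low Tfh. It read 7.05 and 7.18 in PD1-intermediate Th, 9.59 and 10.08 in PD1-low Th, and 7.99 and 9.32 in naive cells. All 3 Venus-high arrays lay under log2 5, and all arrays of the 3 other lymph node and spleen populations without high PD1 lay above it. The order from Venus-high to PD1-low was the same as the order of the gates. Oas2 was at least 28.5-fold lower in Venus-high Tfh than in PD1-low Th, taking log2 5 as the level in Venus-high cells (fitted difference -6.85 ± 1.00 SE, adjusted p = 0.00235). The difference was -6.40 within set 2 and -6.45 within set 3. Against naive cells it was at least 12.6-fold lower (-5.67 ± 1.00, adjusted p = 0.00528), a call lost without naive replicate 2 (adjusted p = 0.0556) or without array set 2 (adjusted p = 0.230). Without array set 2, which leaves 1 PD1-low array, the call against PD1-low Th was lost too (-7.19, adjusted p = 0.146, where the lone array is assumed to vary like the other groups). Venus-low Tfh and PD1-intermediate Th differed by -2.66 ± 1.00 (adjusted p = 0.410), and with the set term PD1-intermediate lay below PD1-low Th by -3.0 ± 0.55 (adjusted p = 0.0141).

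Markers of CD8 T and NK cells followed the same order. Their summed level was 4.56 to 4.84 in Venus-high Tfh, 5.02 to 6.50 in Venus-low Tfh, 7.83 to 9.06 in PD1-intermediate Th, 10.87 to 11.55 in PD1-low Th and 9.49 to 9.81 in naive cells. Of the 5 markers measured, Cd8a, Ncr1 and Klrk1 were below log2 5 on every array, and Klrd1 and Cd8b1 passed the filter. Both of these fell in Venus-high Tfh against PD1-low Th, Klrd1 at least 70.9-fold and Cd8b1 at least 2.80-fold (adjusted p = 5.3e-05 and 0.00608). Their part in the Oas2 result was not tested. Of the 8 myeloid markers, Cd68 went the other way, at 8.83 to 9.26 in Venus-high Tfh and at most 5.72 in PD1-low Th and naive cells, and its part in these results was not tested either.

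Oas1a lies at the opposite end from Oas2 in a cluster of 9 Oas genes on chromosome 5, in the order Oas2, Oas3, Oas1e, Oas1c, Oas1b, Oas1f, Oas1h, Oas1g, Oas1a. It read 11.76, 11.68 and 11.80 in Venus-high Tfh and 11.75, 11.32 and 12.09 in Venus-low Tfh. It read 11.86 and 11.81 in PD1-intermediate Th, 9.82 and 10.78 in PD1-low Th, and 9.67 and 8.91 in naive cells. The 8 arrays of CXCR5+ cells lay within 11.32 to 12.09, and all 4 other arrays lay below them. Oas1a was higher in Venus-high Tfh than in PD1-low Th by 1.45 ± 0.36 (adjusted p = 0.0331) and than in naive cells by 2.46 ± 0.36 (adjusted p = 0.00190). The call against naive cells held in 20 of 20 alternatives, and the call against PD1-low Th in 10 of 20. The Oas1 genes are related copies, and whether the probe set reads several of them was not tested.

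Oas3, next to Oas2 in that cluster, read 8.80, 10.29 and 10.61 in Venus-high Tfh and 9.69, 10.72 and 10.99 in Venus-low Tfh. Oas3 passed in no comparison without or with the set term, and its values of 9.56 and 10.26 in PD1-low Th and 8.92 and 8.88 in naive cells overlapped those of Venus-high Tfh. Oasl1 and Oasl2, OAS-like proteins encoded elsewhere on chromosome 5, passed in no comparison either. Oasl1 read 6.46, 8.56 and 7.39 in Venus-high and 5.70, 6.72 and 6.74 in Venus-low Tfh, a difference of 1.08 ± 0.50 (adjusted p = 0.569) that was positive in all 3 sets. In PD1-low Th it read 8.26 and 8.31, above both PD1-intermediate arrays at 6.50 and 6.05, and the set term left this difference just outside the threshold (-1.92 ± 0.50, adjusted p = 0.0504).

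**Figure D2:**
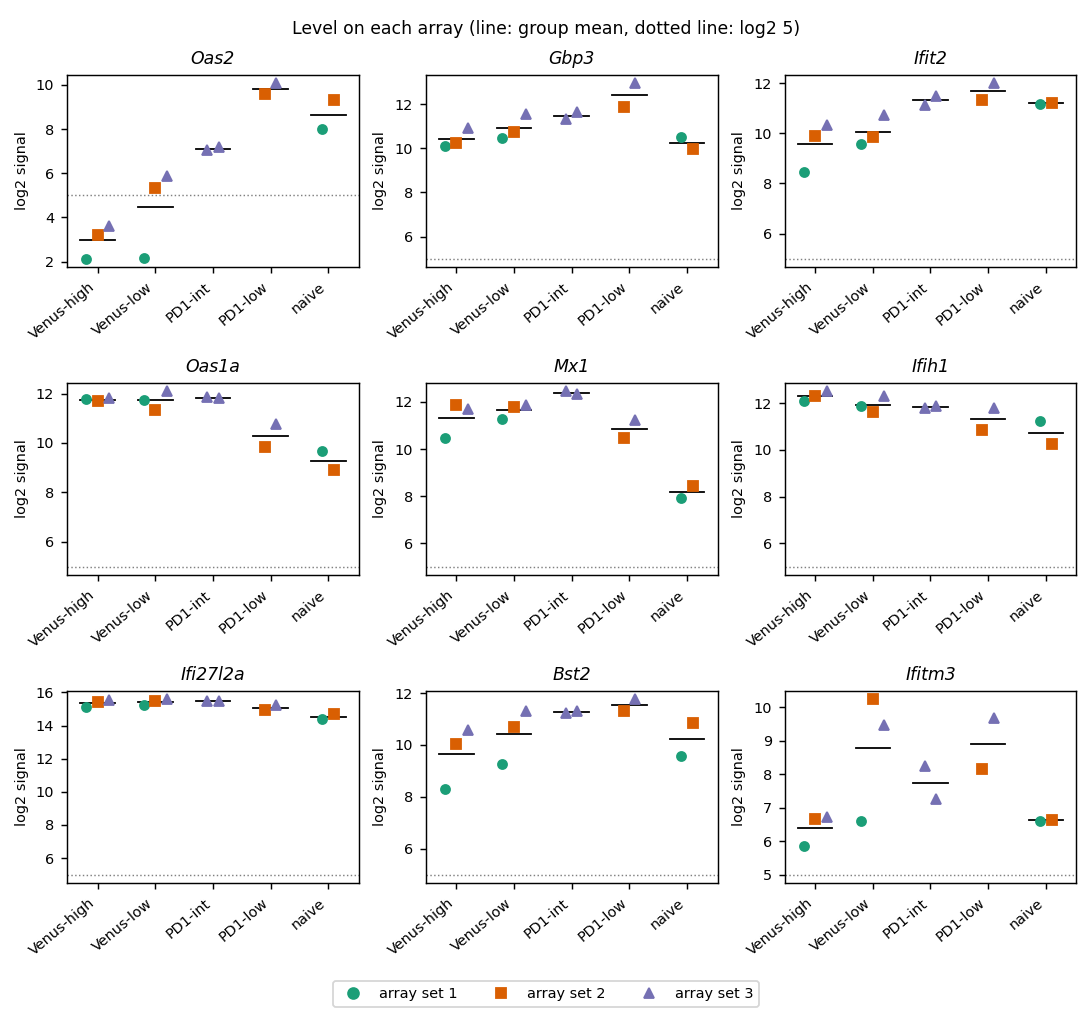
The panels give the log2 signal (vertical axis) of 9 interferon response genes on each array, by group (horizontal axis), with the array set shown by symbol and colour and the group mean as a line. Oas2 climbs from under 5 in Venus-high Tfh to 9.59 and 10.08 in PD1-low Th, while Oas1a and Mx1 are lowest in naive cells and Ifitm3 is spread widely within Venus-low Tfh.

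Mx1, a GTPase that blocks influenza-like viruses, was the clearest gene lower in naive cells. It read 7.90 and 8.41 there, 10.45 and 11.23 in PD1-low Th, and 12.45 and 12.35 in PD1-intermediate Th. In Tfh cells it read 10.47, 11.85 and 11.69 (Venus-high) and 11.28, 11.80 and 11.89 (Venus-low). Both naive arrays lay more than 2 log2 units below every other array. Venus-high Tfh exceeded naive cells by 3.18 ± 0.45 (9.06-fold, adjusted p = 0.00157), by 2.57 within set 1 and 3.44 within set 2. The call was lost in 1 of 20 alternatives, without array set 2 (adjusted p = 0.0751). With the set term, PD1-low Th also exceeded naive cells (2.19 ± 0.30, adjusted p = 0.0403) and PD1-intermediate exceeded PD1-low Th (1.43 ± 0.29, adjusted p = 0.0215).

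Among the proteins that bind or cut RNA, 1 of 3 IFIT genes, Ifit2, passed between Venus-high Tfh and PD1-low Th. Ifit2 read 8.47, 9.90 and 10.32 in Venus-high Tfh, 9.57, 9.86 and 10.74 in Venus-low Tfh and 11.15 and 11.50 in PD1-intermediate Th. It read 11.34 and 12 in PD1-low Th and 11.19 and 11.22 in naive cells. The Venus-high arrays lay below all arrays of the groups without high PD1. Ifit2 was lower in Venus-high Tfh than in PD1-low Th by -2.11 ± 0.55 (adjusted p = 0.0420), a call lost in 13 of 20 alternatives, and with the set term it was lower than in naive cells too (-1.99 ± 0.30, adjusted p = 0.00185). Ifit1, which binds viral RNA lacking a normal cap, read 9.68, 11.40 and 12.11 in Venus-high Tfh, 11.92 and 12.80 in PD1-low Th and 11.07 and 11.60 in naive cells. Its Venus-high values overlapped those of both groups, and of the fits without and with the set term it passed in the latter (-0.79 ± 0.24 against PD1-low Th, adjusted p = 0.0426, and -0.73 ± 0.24 against naive cells, adjusted p = 0.0491). Ifit3 ran from 8.83 to 11.72 within Venus-high Tfh alone and passed in neither of these fits.

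Rsad2 (viperin) makes a nucleotide that stops viral polymerases. It read 10.60, 11.79 and 12.61 in Venus-high Tfh, 10.53 and 11.68 in PD1-low Th, and 9.05 and 9.73 in naive cells. Without the set term Rsad2 missed the threshold against naive cells (2.28 ± 0.66, adjusted p = 0.0556). With the term it passed against naive cells (1.83 ± 0.16, adjusted p = 0.000194) and against PD1-low Th (1.02 ± 0.16, adjusted p = 0.00299). Isg20, an exonuclease, read 11.12, 11.17 and 12.29 in Venus-high Tfh and 10.16 and 9.66 in naive cells. Those arrays did not overlap, but Isg20 missed the threshold without the set term (adjusted p = 0.0882) and passed with it (1.24 ± 0.15, adjusted p = 0.000756) and after renewed quantile normalization. Zbp1, a sensor of Z-form nucleic acid, ranged from 10.85 to 12.79 over all arrays and passed in neither fit.

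Bst2 (tetherin) holds budding virus at the cell surface. It read 8.30, 10.02 and 10.59 in Venus-high Tfh and 9.26, 10.68 and 11.32 in Venus-low Tfh. It read 11.23 and 11.32 in PD1-intermediate Th, 11.32 and 11.76 in PD1-low Th, and 9.58 and 10.85 in naive cells. The Tfh arrays overlapped as groups, yet in each set the Venus-high array lay below its Venus-low partner, by -0.96, -0.66 and -0.74. Without the set term the difference did not pass (-0.78 ± 0.69, adjusted p = 1), and with it Bst2 passed (-0.78 ± 0.11, adjusted p = 0.00601). With the term it was also lower in Venus-high Tfh than in PD1-low Th (-1.31 ± 0.13, adjusted p = 0.000354) and naive cells (-1.02 ± 0.13, adjusted p = 0.000836), and lower in PD1-intermediate than in PD1-low Th (-0.56 ± 0.15, adjusted p = 0.0495).

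Eif2ak2 codes for PKR, a kinase that stops translation when it meets double-stranded RNA. It read 8.98, 8.67 and 10.22 in Venus-high Tfh and 10.06, 10.29 and 10.43 in Venus-low Tfh. Only Venus-high 3 reached the Venus-low range. The difference of -0.97 ± 0.41 (adjusted p = 0.468) passed with the set term (± 0.23, adjusted p = 0.0332), and its size ran from -0.21 in set 3 to -1.62 in set 2. That call rests on 1 of the gene's 3 probe sets. Another (r = 0.77 over the 12 arrays) read 8.18, 9.06 and 9.40 in Venus-high and 8.44, 9.58 and 9.43 in Venus-low Tfh. The remaining one (r = 0.90) read 9.22, 9.14 and 10.13 in Venus-high and 10.32, 10.21 and 10.47 in Venus-low Tfh.

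Ifitm3 blocks the fusion of viruses with endosomes. It read 5.84, 6.65 and 6.71 in Venus-high Tfh and 6.60, 10.23 and 9.47 in Venus-low Tfh. It read 8.24 and 7.25 in PD1-intermediate Th, 8.14 and 9.67 in PD1-low Th, and 6.60 and 6.63 in naive cells. Venus-low 1 sat with the Venus-high arrays and the other two Venus-low arrays lay far above, so the groups overlapped. The difference was -2.36 ± 0.86 (adjusted p = 0.355; 0.0624 with the set term), negative in all 3 sets, and without Venus-low replicate 1 it passed. Ifitm2, its neighbour in sequence and function and not 1 of the 35, read 5.97, 4.72 and 5.32 in Venus-high and 8.04, 8.25 and 8.78 in Venus-low Tfh and fell in Venus-high cells (-3.02 ± 0.53, adjusted p = 0.0307).

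Of the genes around ISG15, which is joined to proteins like ubiquitin, 4 were tested and 0 passed in the fit of the groups alone. Usp18 removes ISG15 and damps signalling at the interferon receptor. It read 9.55, 11.34 and 12.33 in Venus-high Tfh, 12.48 and 13.23 in PD1-low Th and 11.57 and 11.54 in naive cells. The Venus-high arrays all lay below the PD1-low arrays, and the difference passed with the set term (-1.30 ± 0.36, adjusted p = 0.0311). Trim25, the ubiquitin ligase that activates RIG-I, read 11.04, 12.02 and 11.84 in Venus-high Tfh, 12.48 and 12.46 in PD1-low Th and 11.87 and 12.29 in naive cells. With the set term it was lower in Venus-high Tfh than in both (-0.58 ± 0.14, adjusted p = 0.0182, and -0.56 ± 0.14, adjusted p = 0.0175). Trim30a read 12.11, 12.93 and 13.53 in Venus-high Tfh against 12.98 and 13.08 in naive cells, which overlapped, and passed with the set term (-0.52 ± 0.17, adjusted p = 0.0463). That call rests on 1 probe set. The gene's other probe set (r = 0.41 over the 12 arrays) read 10.80, 10.48 and 11.09 in Venus-high Tfh and 9.23 and 10.97 in naive cells. Herc6, the mouse ligase for ISG15, ranged from 10.34 to 11.66 and passed in neither fit.

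The 3 transcription factors that carry the signal passed in no comparison without or with the set term. Under the replicate block Irf9 and Stat2 were lower in Venus-high Tfh than in PD1-low Th, and Irf9 and Irf7 lower in Venus-low Tfh than in PD1-intermediate Th. That block does not follow the array sets in the PD1-low and PD1-intermediate groups, so the shift between sets is not separated from these differences. Stat2 read 7.54, 8.88 and 9.30 in Venus-high Tfh, 8.29, 9.19 and 9.60 in Venus-low Tfh, and 9.70 and 9.81 in PD1-intermediate Th. It read 9.46 and 9.99 in PD1-low Th and 9.25 and 8.78 in naive cells. All Venus-high arrays lay below both PD1-low arrays (-1.15 ± 0.55, adjusted p = 0.288). Irf9, the DNA-binding partner of STAT2, read 10.80, 11.86 and 12.03 in Venus-high Tfh, 11.02, 11.72 and 11.88 in Venus-low Tfh and 12.24 and 12.47 in PD1-intermediate Th. Irf9 read 11.84 and 12.57 in PD1-low Th and 11.60 and 12.06 in naive cells. Irf7, which amplifies interferon production, read 10.51, 11.53 and 11.47 in Venus-high Tfh, 10.44, 10.81 and 11.04 in Venus-low Tfh and 11.48 on both PD1-intermediate arrays. Irf7 read 11.23 and 11.62 in PD1-low Th and 10.44 and 10.76 in naive cells. Its higher level in Venus-high than in Venus-low Tfh (0.41 ± 0.31, adjusted p = 0.979) was seen in all 3 sets, at 0.07, 0.72 and 0.43.

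The 3 cytosolic RNA sensors went different ways. Ifih1 (MDA5), which reads long double-stranded RNA, stood at 12.08, 12.29 and 12.51 in Venus-high Tfh and 11.89, 11.60 and 12.31 in Venus-low Tfh. It stood at 11.80 and 11.87 in PD1-intermediate Th, 10.86 and 11.80 in PD1-low Th, and 11.22 and 10.24 in naive cells. All Venus-high arrays lay above all PD1-low and naive arrays. Ifih1 was higher in Venus-high Tfh than in naive cells by 1.56 ± 0.39 (adjusted p = 0.0281), a call lost in 8 of 20 alternatives, and than in PD1-low Th with the set term (0.95 ± 0.25, adjusted p = 0.0222). Dhx58 (LGP2), which regulates the other two sensors, read 8.32, 10.01 and 9.96 in Venus-high Tfh and 7.91 and 9.09 in naive cells. Those ranges overlapped, and Dhx58 passed only with the set term (0.68 ± 0.17, adjusted p = 0.0182). Ddx58 (RIG-I), the sensor of uncapped RNA ends, ranged from 9.69 to 11.06 and passed in no comparison. Its highest array was naive 1, so it did not share the low naive level of Ifih1 and Dhx58.

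The guanylate-binding proteins Gbp2 and Gbp3, GTPases that attack vacuoles of intracellular microbes and respond to interferon gamma as well, were highest in PD1-low Th. Gbp3 read 11.86 and 12.95 there and 11.31 and 11.63 in PD1-intermediate Th. Gbp3 read 10.12, 10.22 and 10.92 in Venus-high Tfh, 10.49, 10.74 and 11.54 in Venus-low Tfh, and 10.52 and 9.97 in naive cells. Both PD1-low arrays lay above every other array. Venus-high Tfh lay below PD1-low Th by -1.98 ± 0.45 (3.94-fold, adjusted p = 0.0218), by -1.64 within set 2 and -2.02 within set 3. The call was lost in 5 of 20 alternatives, among them without Venus-high replicate 1 or 2 and without PD1-low replicate 2. With the set term PD1-low Th exceeded naive cells by 1.73 ± 0.23 (adjusted p = 0.0401) and PD1-intermediate Th lay below PD1-low Th by -1.40 ± 0.23 (adjusted p = 0.00961). Gbp2 read 11.35 and 12.14 in PD1-low Th, 10.51, 10.43 and 10.74 in Venus-high Tfh, 10.05, 9.88 and 10.70 in Venus-low Tfh, 10.18 and 10.71 in PD1-intermediate Th, and 11.05 and 11.13 in naive cells. The PD1-low arrays were again above all others. Gbp2 just missed the threshold against PD1-low Th (-1.19 ± 0.34, adjusted p = 0.0566). It passed with the set term against PD1-low Th (-1.11 ± 0.20, adjusted p = 0.00473) and naive cells (-0.72 ± 0.20, adjusted p = 0.0248), and PD1-intermediate Th lay below PD1-low Th (-1.61 ± 0.22, adjusted p = 0.00513).

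Of the 5 remaining members tested, 1 passed without the set term. Ifi27l2a, a small mitochondrial protein induced by interferon, read 15.12, 15.43 and 15.55 in Venus-high Tfh and 15.26, 15.48 and 15.59 in Venus-low Tfh. It read 15.49 on both PD1-intermediate arrays, 14.91 and 15.26 in PD1-low Th, and 14.40 and 14.69 in naive cells. The naive arrays lay below all others. Ifi27l2a was higher in Venus-high Tfh than in naive cells by 0.82 ± 0.23 (adjusted p = 0.0478), a call lost in 13 of 20 alternatives, and with the set term higher than in PD1-low Th by 0.39 ± 0.10 (adjusted p = 0.0209). Xaf1, which binds the apoptosis inhibitor XIAP, and Rtp4, a receptor chaperone that also binds RNA, passed in no comparison and ranged from 10.66 to 13.10 and from 11.54 to 12.59. Ifi35 stayed within 13.90 to 14.54, and its probe set correlated by only 0.27 and 0.56 over the 12 arrays with the gene's other 2 probe sets.

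Parp14, an ADP-ribosyl transferase, had the largest spread between array sets. Its probe set read 13.19 to 13.81 on the 8 arrays of sets 1 and 3, and 9.64, 9.30, 9.60 and 9.78 on the 4 arrays of set 2. A second Parp14 probe set did the reverse, at 8.59 to 10.14 in sets 1 and 3 and 13.22 to 13.49 in set 2 (r = -0.97 over 12 arrays). Within a set the groups differed by at most 0.34 between Venus-high and Venus-low Tfh. No Parp14 difference is read as one between cell populations.

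**Figure D3:**
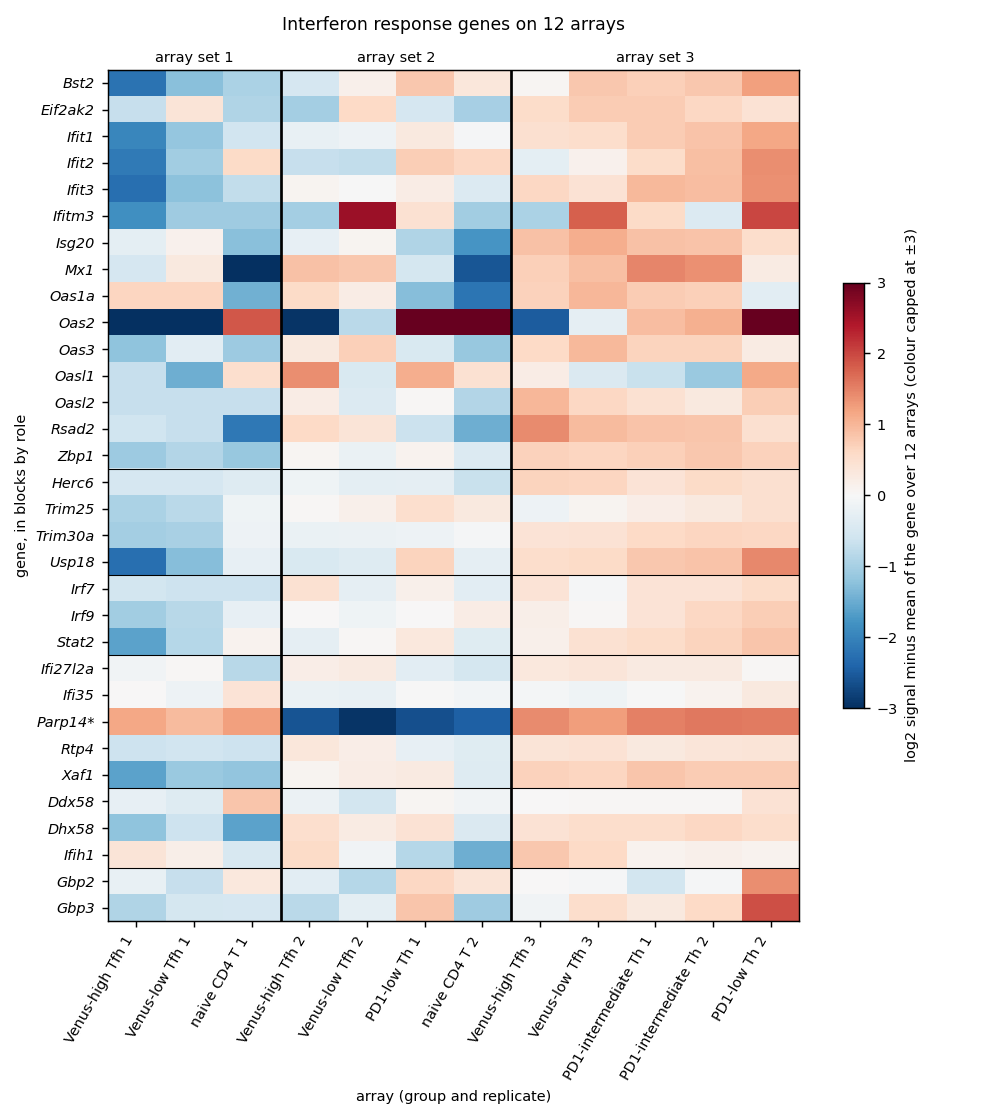
The heat map gives the log2 signal minus the mean of each gene over 12 arrays (colour, capped at 3 in each direction) for 32 interferon response genes (rows, in blocks by role) on 12 arrays (columns, by array set and group). The 3 columns of set 1 are mostly blue and the 5 columns of set 3 mostly red, Oas2 runs from blue to red within each set, and Parp14 (starred, displaced probe set) is blue on all of set 2.

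Differences between array sets were as large as those between populations for many genes, and the interferon genes did not stand out from all genes in this. The sets were found from the values themselves, so these figures are a description. In the fit with both terms the range over sets exceeded the range over groups in 17 of 32 genes, against 59.1% of all genes. In Venus-high Tfh the median interferon gene lay 1.00 higher in set 2 than in set 1, against 0.19 over all genes, and in Venus-low Tfh 0.69 higher, against 0.13. In naive cells the same difference was 0.06, against -0.04. After the 12 arrays were quantile normalized again, the 3 values were 0.85, 0.59 and 0.05, against 0.06, 0.01 and -0.06 over all genes. Relative to set 2 of the same group, the Tfh arrays of set 1 therefore read low for interferon genes, and the naive array did not. The median of the tested interferon genes was 10.57 on naive 1 and 10.49 on both Tfh arrays of set 1. On naive 2 it was 10.29, against 10.94 to 11.17 on the other arrays of set 2. These differences cannot tell low Tfh arrays in set 1 from a low naive 2 array.

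Set 3 lay above set 1 in both Tfh groups for 31 of 32 genes, against 75.4% of all genes, by a median of 1.22 in Venus-high and 1.10 in Venus-low Tfh. After renewed normalization these medians were 0.49 and 0.37, against 0.02 and 0.01 over all genes. Ifit3 moved most between sets 1 and 3 in Venus-high Tfh, from 8.83 to 11.72, followed by Usp18, from 9.55 to 12.33, and Ifit1, from 9.68 to 12.11. Oas1a differed by 0.04 between the same 2 arrays. Between sets 2 and 3 the interferon genes differed by about as much as all genes in both Tfh groups (0.41 against 0.51, and 0.55 against 0.56).

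**Figure D4:**
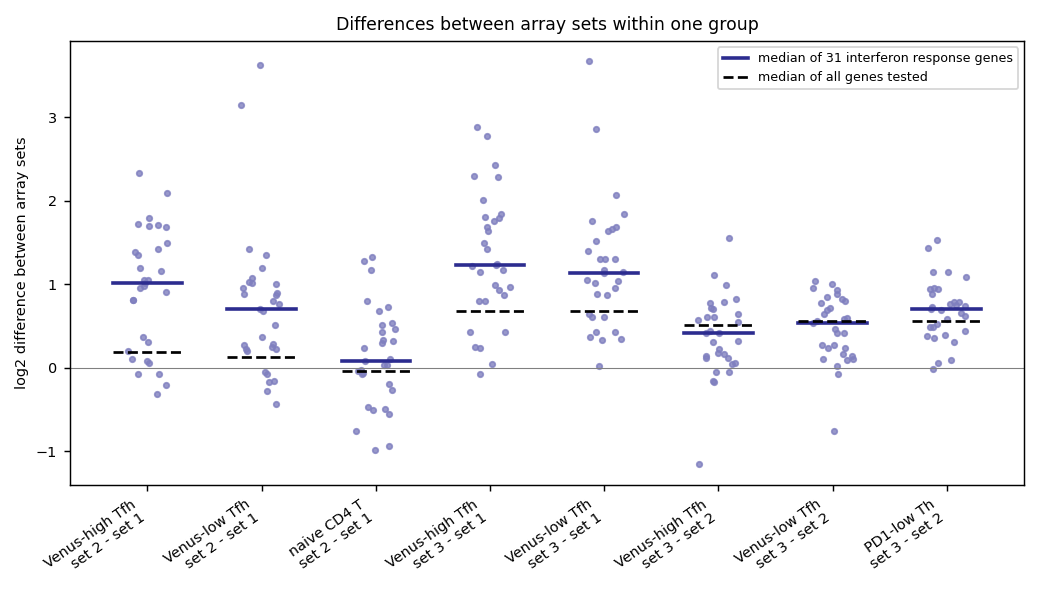
Points give the log2 difference between 2 array sets (vertical axis) within 1 group (horizontal axis) for 31 interferon response genes (without Parp14, whose probe set is displaced), with their median as a solid line and the median of all genes tested as a dashed line. In both Tfh groups the members' median is above the dashed line for set 2 and set 3 minus set 1 (1.02 and 1.23 in Venus-high Tfh), and in naive cells it is 0.08.

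The order of the population means depended on the array set term. Without it PD1-intermediate Th was highest for 19 of 32 members (52.2% of all genes) and PD1-low Th for 10 (15.1%), and naive cells were lowest for 18 (46%). With it PD1-low Th was highest for 12 (15.4% of genes) and PD1-intermediate Th for 3 (10.9%), naive cells were lowest for 14 (23.4%) and Venus-high Tfh for 11 (23%). PD1-low Th was lowest for 0 members in either case (9.49% and 18.8% of genes). The term takes 1 shift per set for all populations, whereas the shift from set 1 to set 2 was 1.00 in Venus-high Tfh and 0.06 in naive cells, so orders of Tfh against naive cells from this fit are less certain. With the term the members lowest in naive cells included Mx1, Oas1a, Oas3, Isg20, Rsad2, Ifih1 and Dhx58, and those lowest in Venus-high Tfh included Oas2, Ifit1, Ifit2, Ifit3, Bst2, Usp18, Stat2, Trim25 and Gbp3.

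The general scale of the arrays enters the comparisons that cross sets. Renewed quantile normalization moved the median of all genes from -0.40 to -0.01 for Venus-low Tfh against PD1-intermediate Th, from 0.29 to 0.02 for PD1-intermediate against PD1-low Th, from 0.28 to -0.03 for PD1-low Th against naive cells and from 0.18 to -0.03 for Venus-high Tfh against naive cells. On that scale the median interferon gene was -0.11, -0.18, 0.54 and 0.13 in these 4 comparisons, so that between PD1-intermediate and PD1-low Th it changed sign from 0.12. Between PD1-low Th and naive cells 29 of 32 members were positive, against 46.7% of genes.

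Of 10 genes listed for the interferons themselves, 6 were measured, and those of type I among these read low. Ifnb1, Ifna1, Ifna2, Ifna4 and Ifna5 stayed below log2 5 on every array, the highest reading being 3.32. Ifng, the type II interferon made by T cells, read 7.43, 8.22 and 11.21 in Venus-high Tfh and 7.01, 8.50 and 9.70 in Venus-low Tfh. Ifng was below 3 on all PD1-low and naive arrays, and rose in Venus-high Tfh at least 15.5-fold against PD1-low Th (adjusted p = 0.00566) and naive cells (adjusted p = 0.00515).

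Of 16 tested genes for interferon receptors and JAK-STAT signalling, 2 were higher and 2 lower in Venus-high Tfh than in PD1-low Th (all genes 6.34% and 4.93%). The same counts held against naive cells (all genes 9.49% and 4.22%). The set term gave 3 higher and 4 lower (all genes 19% and 15.6%) against PD1-low Th, and 5 higher and 7 lower (20.2% and 20.9%) against naive cells. Both chains of the interferon gamma receptor were lower: Ifngr1 by -2.36 ± 0.53 (adjusted p = 0.0209) and Ifngr2 by -4.31 ± 1.08 (adjusted p = 0.0341) against PD1-low Th. The kinase Jak2 was higher by 1.00 ± 0.23 (adjusted p = 0.0215) and the phosphatase Ptpn11 by 2.29 ± 0.19 (adjusted p = 0.0001). Ifnar2, a chain of the type I receptor, read 9.34, 10.32 and 10.59 in Venus-high Tfh and 8.98 and 9.70 in naive cells. Of the comparisons of Venus-high Tfh it passed in 1, against naive cells with the set term (0.46 ± 0.15, adjusted p = 0.0422). The probe set of Ifnar1, the other chain, is displaced in set 2 and is not read.

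Of 9 interferon regulatory factors outside the list, 0 passed against PD1-low Th and 2 were higher in Venus-high Tfh than in naive cells, Irf4 by 3.59 ± 0.52 (adjusted p = 0.00190) and Irf8 by 4.24 ± 0.78 (adjusted p = 0.00680). Both act in the differentiation of immune cells. All genes passed at 11.3% against PD1-low Th and at 9.49% (higher) and 4.22% (lower) against naive cells. With the set term Irf8 was higher and Irf1 lower against PD1-low Th (19% and 15.6% of all genes). Against naive cells 2 were then higher and 4 lower, Irf1, Irf2, Irf2bp2 and Irf2bpl (20.2% and 20.9%). Of 11 genes for nucleic acid sensing, Tlr7, which reads RNA in endosomes, and Cgas, which reads cytosolic DNA, were lower in Venus-high Tfh against both PD1-low Th (-5.19 ± 0.67 and -1.60 ± 0.31) and naive cells (-2.60 ± 0.67 and -1.61 ± 0.31). Aim2, a DNA sensor of inflammasomes, was higher than in naive cells (1.82 ± 0.40). Thus 2 sensing genes were lower and 0 higher against PD1-low Th (4.93% and 6.34% of all genes). Against naive cells 2 were lower and 1 higher (4.22% and 9.49%). With the set term 4 were lower and 2 higher against PD1-low Th (15.6% and 19%). Against naive cells 3 were then lower and 3 higher (20.9% and 20.2%).

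Of 15 genes tied mainly to interferon gamma, 0 passed in either comparison (all genes 11.3% against PD1-low Th and 13.7% against naive cells). With the set term 6 were lower and 1 was higher in Venus-high Tfh in each comparison, where 15.6% of all genes were lower against PD1-low Th and 20.9% against naive cells. Those with the largest change against PD1-low Th were the chemokine gene Cxcl10 (3.17 ± 0.71, adjusted p = 0.0128) and, on the lower side, the GTPases Gbp7 (-1.56 ± 0.24), Gbp6 (-0.98 ± 0.15) and Irgm2 (-0.65 ± 0.16). Of 41 further interferon-induced genes, 4 were higher and 2 lower in Venus-high Tfh than in PD1-low Th (all genes 6.34% and 4.93%). Against naive cells 5 were higher and 2 lower (all genes 9.49% and 4.22%). The set term gave 7 higher and 10 lower (all genes 19% and 15.6%), and 9 higher and 11 lower (20.2% and 20.9%). The largest changes were in Ifi204, a relative of AIM2, higher by 6.01 ± 1.14 against PD1-low Th and 5.83 ± 1.14 against naive cells, Casp4, an inflammatory caspase, higher by 3.56 ± 0.87 and 6.59 ± 0.87, and Tmem140, higher by 3.09 ± 0.33 and 3.87 ± 0.33. Slfn8, of the Schlafen family, was lower by -2.16 ± 0.26 and -2.07 ± 0.26. In these wider lists too, members went in both directions.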

How the data were processed

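RNA of 12 sorted pools was read on Affymetrix mouse arrays after amplification of 20 ng (Nugen Ovation V2), per the labels' protocols. The deposited values are log2 intensities made by GCRMA, per the submitters' processing notes, which give no version, and no raw intensity was used. The 45101 probe sets were named from the platform annotation: 34958 have 1 symbol, 932 several and 9211 none. The probe set with the highest mean stood for each gene, and genes at log2 5 or more on at least 2 arrays were tested.

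All 12 arrays entered 1 limma fit (R 4.3.3, limma 3.58.1) of 5 groups with 7 residual degrees of freedom. Moderated p-values were adjusted by Benjamini-Hochberg over 9886 genes for each of 6 comparisons, at 0.05. A second fit added the array set, found by clustering quantiles from 1% to 99% of each array (5 residual degrees of freedom). Differences are given ± SE. A group below log2 5 was set to that level for an "at least" fold. The number of arrays limits the precision. The code was tested on simulated data.

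Same-numbered Venus-high and Venus-low arrays deviated together (r across genes 0.91, 0.95 and 0.92), and each number lies in 1 array set. The members and the other gene lists were chosen with earlier results of these data known. All members may be named, with values per array for those past the threshold in either fit and for Stat2, Irf7 and Irf9, and up to 4 genes of each other list. Values of other members were chosen after they were seen. Alternatives were another probe set rule, no filter, renewed quantile normalization, a replicate block and leaving out arrays.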

Additional observations from a re-analysis of the deposited data

How the results depend on the processing

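The counts below are genes past the threshold out of the interferon genes, with all genes after them. Where a count of all genes is left out, it stayed within 1.5 times its count in the fit of the groups alone. Of the 9 member calls made without the array set term, 0 reversed under any of 20 alternatives each. Some alternatives, such as no filter or leaving out arrays of other groups, leave the difference itself unchanged and so could not reverse it. With the array set term, Venus-high against Venus-low Tfh gave 2 (1671 of all genes, against 130), Venus-low Tfh against PD1-intermediate Th 634 of all genes (against 56), PD1-intermediate against PD1-low Th 6 (1265, against 396), PD1-low Th against naive cells 2 (56, against 8), Venus-high Tfh against PD1-low Th 12 (3429, against 1114) and against naive cells 14 (4066, against 1355). With the replicate block, in the same order, the interferon genes gave 0, 11, 2, 1 and 14, and all genes 262, 2762, 691, 25 and 2565, and the last comparison stayed within 1.5 times. After renewed quantile normalization, all genes gave 413, 146, 637, 37, 1768 and 2008. The interferon genes gave 2 between PD1-intermediate and PD1-low Th, 1 between PD1-low Th and naive cells and 8 between Venus-high Tfh and naive cells.

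Without displaced probe sets, all genes gave 85 between Venus-low Tfh and PD1-intermediate Th and 17 between PD1-low Th and naive cells. For the latter, the mean of probe sets gave 1 and no filter gave 20. With no filter, 2 interferon genes passed between Venus-high Tfh and PD1-low Th (1047 of all genes). Leaving out an array set was chosen after seeing the data, and leaves naive cells (set 1) or naive and PD1-low cells (set 2) with 1 array, assumed to vary like the other groups. Without set 1, interferon genes gave 1 between PD1-intermediate and PD1-low Th, 1 between Venus-high Tfh and PD1-low Th and 3 against naive cells. All genes then gave 62 (Venus-high against Venus-low), 12 (Venus-low against PD1-intermediate), 0 (PD1-low against naive) and 846 (Venus-high against naive). Without set 2, interferon genes gave 0 between Venus-high Tfh and PD1-low Th and 1 against naive cells, and all genes gave 0, 5, 79, 0, 310 and 476 in the 6 comparisons. The cause of these moves was not tested.

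With single arrays left out, the interferon genes ranged over 0 to 1, 0 to 0, 0 to 1, 0 to 0, 1 to 5 and 2 to 6, and all genes over 33 to 150, 5 to 50, 137 to 386, 0 to 41, 619 to 1113 and 817 to 1373. Without Venus-high replicate 1 or 2, Oas2 alone passed between Venus-high Tfh and PD1-low Th, and without naive replicate 2 only Mx1 and Oas1a passed between Venus-high Tfh and naive cells. Genes whose arrays lie near log2 5 have the least certain values.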
